A study of Homo sapiens with 7 samples.

Results

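The mitochondrial ribosomal protein genes are the 78 genes of the deposited table whose symbol is MRPL or MRPS followed by a number, 49 MRPL and 29 MRPS genes of 19978 genes in all. They lie on 21 chromosomes, and all 78 passed the filter on low counts. Poly(A) RNA was sequenced from HEK-293 cells, an established human embryonic kidney line, under 3 conditions of 48 h each. All 3 conditions used DMEM with the same share of DMSO. Control cells were kept at pH 7.4 (n = 2), and the acidosis samples in DMEM brought to pH 6.6 with acid (n = 3). The SRPIN340 samples received 10 µM SRPIN340, an inhibitor of the kinases that phosphorylate SR splicing proteins, at pH 7.4 (n = 2). Every sample came from 1 cell line, and no sample combined acid with SRPIN340. The libraries held 13615816 to 24110460 estimated counts, with the lowest total in acidosis. Markers of the line were present in control cells at 867 CPM (counts scaled to a library size of 1e6) for VIM, 297 CPM for KRT8 and 205 CPM for CDH2, whereas the blood marker PTPRC, the endothelial marker PECAM1 and the hepatocyte marker ALB averaged at most 0.714 CPM in any group. Further markers of other cell types were present. The epithelial marker EPCAM averaged 144 CPM in control and 262 CPM in acidosis. In the same order the fibroblast markers COL1A1 and COL3A1 averaged 30.8 and 62.3 CPM and 3.09 and 1.56 CPM. Some markers of the line were unequal between these groups as well. PAX2, a kidney developmental factor, averaged 6.78 CPM in control and 1.82 CPM in acidosis, VIM 867 and 2714 CPM and NEFM 22.8 and 71.8 CPM. LHX1 averaged 15.4 and 16.5 CPM and KRT18 122 and 102 CPM. Their part in the results was not tested.

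Mitochondria keep a ribosome of their own, descended from that of bacteria, which makes the hydrophobic core subunits of the respiratory chain and ATP synthase. Its ribosomal RNAs are transcribed from mitochondrial DNA, but all of its proteins are encoded in the nucleus, made on cytosolic ribosomes and imported. Some of these proteins have bacterial counterparts, while others are found only in mitochondria and replace ribosomal RNA that was lost. The large subunit joins amino acids and releases the chain at an exit site facing the inner membrane, and the small subunit decodes the messenger RNA.

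In acidosis these genes moved in both directions, as did all genes tested, and their changes spread less than those of all genes. With the main scaling, MRPL42, MRPL33 and MRPL48 rose more than 2-fold. MRPL58, MRPS18A, MRPL16 and MRPL47 fell more than 3-fold, although the products of all of these genes meet in one subunit. Of the 78 genes, 22 rose (28.2%, beside 32.5% of all 14863 genes tested) and 34 fell (43.6%, beside 34.2% of all genes), at a Benjamini-Hochberg adjusted p under 0.05 in edgeR's quasi-likelihood test. With a log2 fold change over 1 in size as well, 3 rose (3.85%, beside 14.4% of all genes) and 17 fell (21.8%, beside 19.1%). The median log2 fold change of the 78 genes was -0.12, against -0.05 for all genes, and the values ran from -2.45 to 1.92. The interquartile range of the 78 values was 1.12, against 1.49 for all genes. In 63 of the 78 genes the CPM of the control and acidosis samples did not overlap (80.8%, beside 76.5% of all genes).

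These levels are CPM on TMM-scaled libraries (trimmed mean of M values). The size of the changes, and the direction of the smaller ones, depended on that scaling. When libraries were scaled by their totals only, the median of all genes in acidosis moved from -0.05 to -0.63, a shift of -0.57, and 5 of the 78 genes rose (6.41%, beside 16.2% of all genes) while 60 fell (76.9%, beside 55.0% of all genes). The 22 genes that did not pass with TMM scaling all passed as lower with total scaling. How many of all genes did the same is not given here, and total scaling lowered the median of all genes too. MRPL42, MRPL33, MRPL48, MRPL44 and MRPL11 rose, and 27 genes fell, under each of 16 settings, the main one and 15 alternatives. The lowest log2 fold changes of these 5 rises under any setting were 1.34, 1.22, 0.62, 0.29 and 0.29. MRPL12, MRPL24, MRPL28 and MRPS34 passed the test as higher under some settings and as lower with total scaling. How many of all genes passed under every setting is not given here. All values here are relative within a library: in a bulk sample, fewer cells and less RNA per cell cannot be told apart.

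**Figure D1:**
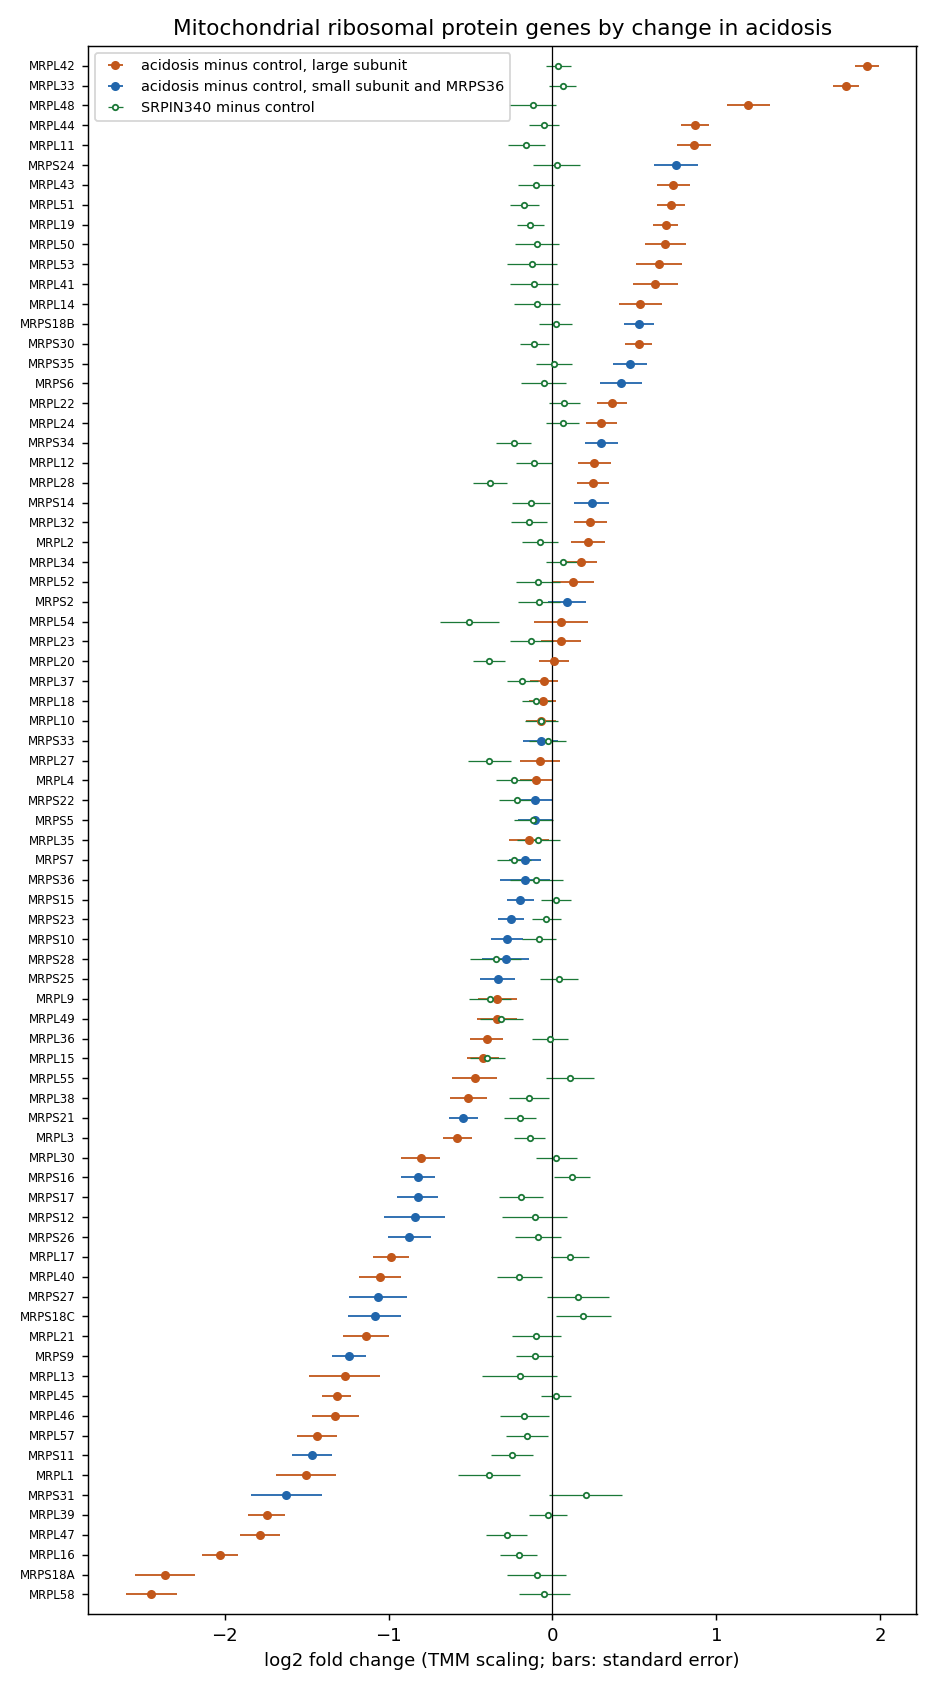
Log2 fold change of each of the 78 genes (vertical axis, ordered by their change in acidosis) against control on the horizontal axis; filled points are acidosis, coloured by subunit, open points are SRPIN340, and bars are standard errors. Acidosis values run from -2.45 for MRPL58 to 1.92 for MRPL42, and SRPIN340 values from -0.51 to 0.20.

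MRPL42, a mitochondrion-specific protein of the large subunit, stood at 75.4 and 78.9 CPM in control, 78.2 and 79.9 CPM with SRPIN340, and 280, 288 and 307 CPM in acidosis. Every acidosis sample was far above the other 4 samples. The log2 fold change was 1.92 (SE 0.0736, adjusted p = 3.59e-08, edgeR), 3.78-fold higher. Counts here are summed per gene, and whether isoforms of different length changed between the groups was not tested. MRPL33, the counterpart of bacterial L33, was measured at 51.3 and 51.9 CPM in control, 53.7 and 54.1 CPM with SRPIN340, and 181, 167 and 187 CPM in acidosis. Its groups were again widely separated, with a log2 fold change of 1.79 (SE 0.08, adjusted p = 8.28e-08). Its transcripts share 21.1% of their exonic bases with BABAM2 on the same strand, a gene at 28.8 CPM in control and 24.3 CPM in acidosis. MRPL48, of the central protuberance that faces the small subunit, read 22 and 18.4 CPM in control and 49.9, 48.1 and 40.5 CPM in acidosis, a log2 fold change of 1.20 (adjusted p = 2.95e-05).

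The next largest rises were smaller. MRPL44, which carries a fold related to RNase III and lies near the exit site, went from 40.3 and 43.3 CPM to 76.5, 76.1 and 76.6 CPM, with a log2 fold change of 0.87 (SE 0.0847, adjusted p = 1.18e-05). MRPL11, at the base of the stalk that recruits translation factors, went from 28.6 and 28.8 CPM to 50.4, 49.9 and 56.1 CPM (log2 fold change 0.86, adjusted p = 5.21e-05). MRPS24, a small subunit protein, went from 43.4 and 56.1 CPM to 87.6, 74.7 and 89.1 CPM (0.75 on the log2 scale, adjusted p = 0.000708). None of the control values of these genes reached an acidosis value. They were picked as large rises that passed, so this separation is no separate support. Of all genes, 76.5% showed no overlap between these groups. MRPS24 is uncertain, since it shares 23.2% of its exonic bases with the readthrough gene URGCP-MRPS24, which was at 0.0702 CPM in control and 3.74 CPM in acidosis, and with total scaling it was at 0.18 with an adjusted p of 0.254.

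The lowest value belonged to MRPL58, a peptidyl-tRNA hydrolase built into the large subunit that can free stalled chains. It was at 25.4 and 29.8 CPM in control, 26.8 and 26.6 CPM with SRPIN340, and 5.17, 5.78 and 4.21 CPM in acidosis. The log2 fold change was -2.45 (SE 0.157, adjusted p = 7.23e-07), 5.46-fold lower, and no acidosis sample came near a control sample. MRPS18A, named for the small subunit but placed in the large one, read 32 and 35.7 CPM in control and 4.81, 7.62 and 7.57 CPM in acidosis, 5.16-fold lower (log2 fold change -2.37, adjusted p = 2.39e-06). It has 50.9% of its exonic bases opposite RSPH9, a gene with mean levels of 0.372 CPM in control and 0.498 CPM in acidosis. MRPL16, which helps to shape the tRNA binding sites, was at 39.8 and 40.9 CPM in control and 9.74, 10.4 and 9.54 CPM in acidosis, 4.08-fold lower (log2 fold change -2.03, adjusted p = 2.72e-07).

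MRPL47 and MRPL39 followed, both assigned here to the exit site. MRPL47 fell from 33.7 and 36.8 CPM to 9.44, 10.7 and 10.6 CPM (log2 fold change -1.79, adjusted p = 1.13e-06). MRPL39 fell from 49.1 and 50.7 CPM to 14, 14 and 16.9 CPM (-1.74, adjusted p = 7.57e-07). The small subunit gene with the largest fall was MRPS31, from 19.2 and 17.3 CPM to 4.04, 7.34 and 6.71 CPM (-1.62, adjusted p = 0.000106). Acidosis and control samples did not overlap in any of these 3 genes, which were picked as large falls that passed. No overlap was seen in 76.5% of all genes. The low levels rest on few counts: the lowest value of any of the 78 genes in a sample was 48.7 estimated counts, for MRPL58 in acidosis replicate 3.

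**Figure D2:**
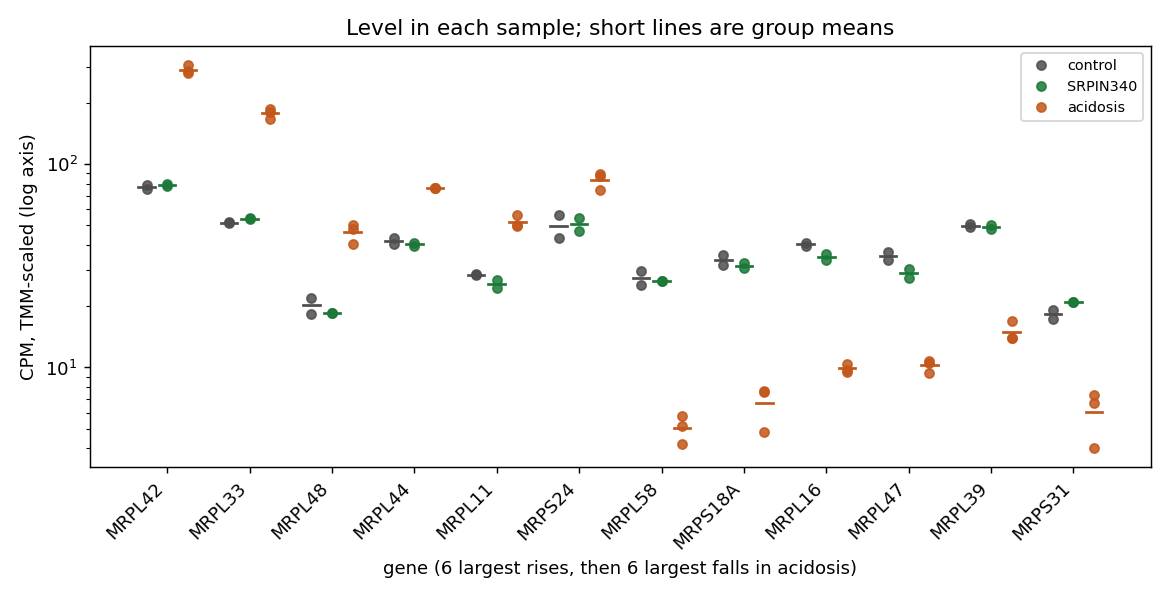
CPM on a log axis (vertical) for the 6 largest rises and the 6 largest falls in acidosis (horizontal); each point is a sample, coloured by group, and short lines are group means. Control and SRPIN340 points lie close together, while acidosis points lie above them from MRPL42 to MRPS24 and below them from MRPL58 to MRPS31.

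Promoter windows of 5 of the 78 genes are shown, for MRPL42, which rose, and for MRPS18A, MRPL46, MRPL47 and MRPL16, which fell. RefSeq windows on GRCh38.p14, from 250 bases before the start site to 50 after it, were given for 69 of the 78 genes. In them, the letters of YY1 (AAGATGGC), a factor known to bind many genes of mitochondrial proteins, were found on either strand in 20 genes (29%), against 2.89% of all 35116 promoters. In 15 of the 20 they read in the sense of the gene and began 7 to 36 bases after the start. These letters hold ATG, and whether they are start codons was not examined. The 35116 windows outnumber the 19978 deposited genes, so they are not a matched set for these genes. The letters of an ETS factor site (CCGGAAGT) were found in 11 genes (15.9%, all promoters 4.14%), of NRF1 (GCGCATGCG) in 3 (4.35%, all 1.92%), of an E-box (CACGTG) in 6 (8.7%, all 7.26%) and of a TATA box (TATAAA) in 2 (2.9%, all 11.5%), and 37 genes held none of them. Of the 20 genes with the YY1 letters, 7 rose, 9 fell and 4 did not pass the test in acidosis. Their median log2 fold change was -0.08, against -0.10 for the genes without them. A match is a description of letters, and binding was not measured. The windows below cover 250 bases before to 30 bases after the start, with matches on either strand in capitals. MRPL42 (chr12:93467264-93467543, plus strand), MRPS18A (chr6:43687762-43688041, minus strand) and MRPL46 (chr15:88467359-88467638, minus strand) have the YY1 letters at positions 9, 10 and 9 after the start. MRPL47 (chr3:179604609-179604888, minus strand) has ETS and reversed YY1 letters, and MRPL16 (chr11:59810749-59811028, minus strand) has reversed ETS letters.
MRPL42: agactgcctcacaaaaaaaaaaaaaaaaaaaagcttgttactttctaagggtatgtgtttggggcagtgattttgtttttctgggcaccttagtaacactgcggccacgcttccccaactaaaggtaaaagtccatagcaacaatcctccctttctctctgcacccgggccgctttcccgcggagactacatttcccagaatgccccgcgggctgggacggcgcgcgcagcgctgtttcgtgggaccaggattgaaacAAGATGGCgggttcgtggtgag
MRPS18A: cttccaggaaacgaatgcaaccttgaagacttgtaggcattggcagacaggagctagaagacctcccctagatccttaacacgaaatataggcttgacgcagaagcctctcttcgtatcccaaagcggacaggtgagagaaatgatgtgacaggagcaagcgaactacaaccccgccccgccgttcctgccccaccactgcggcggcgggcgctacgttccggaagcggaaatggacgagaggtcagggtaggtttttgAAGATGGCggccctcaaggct
MRPL46: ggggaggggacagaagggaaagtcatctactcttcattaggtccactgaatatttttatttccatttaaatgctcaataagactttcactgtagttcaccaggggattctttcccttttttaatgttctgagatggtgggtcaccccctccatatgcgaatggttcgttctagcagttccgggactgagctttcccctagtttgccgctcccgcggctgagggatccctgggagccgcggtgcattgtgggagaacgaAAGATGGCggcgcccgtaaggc
MRPL47: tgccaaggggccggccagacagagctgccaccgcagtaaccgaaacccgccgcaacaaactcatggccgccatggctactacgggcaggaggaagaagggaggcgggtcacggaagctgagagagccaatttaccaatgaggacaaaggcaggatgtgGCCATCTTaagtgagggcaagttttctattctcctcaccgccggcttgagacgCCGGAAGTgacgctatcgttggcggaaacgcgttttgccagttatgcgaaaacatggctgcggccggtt
MRPL16: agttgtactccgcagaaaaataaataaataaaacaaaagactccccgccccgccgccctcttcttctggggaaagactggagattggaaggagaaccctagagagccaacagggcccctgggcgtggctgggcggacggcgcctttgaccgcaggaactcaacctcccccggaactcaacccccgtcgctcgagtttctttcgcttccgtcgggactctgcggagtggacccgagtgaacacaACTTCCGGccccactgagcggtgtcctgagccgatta
MRPL42, with the largest rise of the 78 genes, and MRPS18A, with the second largest fall, have the same YY1 letters within a base of the same place. This pair was chosen after the changes were seen. MRPL58, with the largest fall, and MRPL33 and MRPL48, with the next largest rises, held none of the searched letters. Whether the letters bear on the changes was not tested.

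By subunit, 17 of 51 large subunit genes rose and 21 fell, with a median log2 fold change of -0.06. Of 26 small subunit genes, 5 rose (MRPS24, MRPS18B, MRPS35, MRPS6 and MRPS34) and 13 fell, with a median of -0.26. The genes were assigned by where the protein sits, so MRPS18A and MRPS30 counted as large subunit genes and MRPS36 as neither. With total scaling the counts were 5 higher and 37 lower in the large and 0 higher and 22 lower in the small subunit. Of all genes tested, 32.5% rose and 34.2% fell, or 16.2% and 55.0% with total scaling. Within the large subunit, 8 of 30 genes with a bacterial counterpart rose and 12 fell (median -0.07), and 9 of 21 mitochondrion-specific genes rose and 9 fell (median 0.05). Within the small subunit, 2 of 16 genes with a bacterial counterpart rose and 8 fell, and 3 of 10 mitochondrion-specific genes rose and 5 fell.

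No gene of the stalk of the large subunit, where elongation factors dock, fell under TMM scaling, but 3 of 5 fell and 1 rose with total scaling. Of the 5 genes, MRPL11, MRPL53 (0.65, adjusted p = 0.00253) and MRPL12 (0.26, adjusted p = 0.0486) rose in acidosis, while MRPL10 (-0.07, adjusted p = 0.536) and MRPL54 (0.05, adjusted p = 0.79) did not pass. MRPL12, the mobile factor-binding arm, was at 90.9 and 107 CPM in control and 127, 108 and 118 CPM in acidosis, so the groups nearly touched. With total scaling its log2 fold change was -0.32 (adjusted p = 0.0166), and the call ended when control replicate 1, acidosis replicate 1, acidosis replicate 3 or either SRPIN340 sample was left out (adjusted p from 0.0704 to 0.347). MRPL12 and MRPL53 are uncertain, as they share 69.5% and 72.8% of their exonic bases with a same-strand gene, a readthrough gene at 0 CPM in control in the first case and CCDC142 at 22.1 CPM in the second.

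Around the polypeptide exit site, 3 of 8 genes rose and 4 fell (median -0.47). The risers were MRPL44, MRPL22 (0.36) and MRPL24 (0.30), and the genes that fell were MRPL47, MRPL39, MRPL45 and MRPL17 (-0.99). MRPL45, which ties the ribosome to the inner membrane, went from 67.7 and 72.6 CPM to 28.5, 26.9 and 29.1 CPM, 2.49-fold lower (log2 fold change -1.32, SE 0.0877, adjusted p = 9.24e-07). MRPL22 and MRPL24 were at -0.21 and -0.28 with total scaling, which left 1 gene higher and 6 lower at this site. In the central protuberance, 1 of 8 genes rose, MRPL48, and 5 fell: MRPL58, MRPL46 (-1.32), MRPL40 (-1.05), MRPL38 (-0.51) and MRPL55 (-0.47), while MRPL18 (-0.06) and MRPL27 (-0.08) did not pass. Both sites held genes that rose and genes that fell, also with total scaling, where the central protuberance had 1 higher and 7 lower.

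The 3 human paralogs of bacterial S18 differed. MRPS18A fell as given above, MRPS18C fell from 17.9 and 22.9 CPM to 9.09, 10.7 and 9.03 CPM (log2 fold change -1.09, adjusted p = 0.000235), and MRPS18B rose from 59.4 and 69.2 CPM to 94.3, 88 and 95.7 CPM (0.53, adjusted p = 0.000609). With total scaling MRPS18B was at -0.05 and did not pass. MRPS18C has 40.2% of its exonic bases opposite ABRAXAS1, at 5.19 CPM in control and 3.33 CPM in acidosis. MRPS12, at the decoding site, fell from 30.1 and 38.8 CPM to 21.4, 14 and 21.9 CPM (-0.84, adjusted p = 0.00285). MRPS30, a large subunit protein despite its name, rose from 59.9 and 57.5 CPM to 85.6, 84.9 and 82.8 CPM (0.53, adjusted p = 0.000347), and was at -0.05 with total scaling. MRPS6, of the small subunit platform, went from 38.7 and 51 CPM to 59.3, 55.7 and 65 CPM (0.42, adjusted p = 0.0155), a call that ended without control replicate 1 (0.23, adjusted p = 0.159), and was at -0.16 with total scaling. SLC5A3, which shares 6.2% of the exonic bases of MRPS6, was higher as well at 0.83 (adjusted p = 3.99e-05). MRPS36, now seen as a part of the oxoglutarate dehydrogenase complex, was at 22.8 and 23.1 CPM in control and 18.8, 18.2 and 24.4 CPM in acidosis, with overlapping groups (-0.17, adjusted p = 0.352). With total scaling it passed as lower, at -0.74 (adjusted p = 0.00129).

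Per transcript length the order of control levels was different from that of the changes. On the CPM per kb scale, with the length of the canonical transcript, the highest control means were 119 for MRPL51, 102 for MRPL33, 99.3 for MRPS34, 97.9 for MRPL12 and 88.1 for MRPL20. The lowest were 4.96 for MRPL42, 7.78 for MRPL50 and 8.67 for MRPS33. The value of MRPL42 uses a canonical transcript of 15557 bases and would be higher for a shorter isoform. MRPL51 rose from 101 and 113 CPM to 178, 168 and 185 CPM (log2 fold change 0.72, adjusted p = 4.27e-05), with 27.6% of its exonic bases opposite NCAPD2. MRPL50 rose from 26.5 and 25.4 CPM to 40.1, 37.5 and 48.2 CPM (0.69, adjusted p = 0.000819). With total scaling neither passed, at 0.15 and 0.11. MRPS34, at 90.6 and 108 CPM in control and 129, 110 and 126 CPM in acidosis, was at 0.30 (adjusted p = 0.0248), and this call ended without control replicate 1, acidosis replicate 1 or acidosis replicate 3 (adjusted p = 0.229, 0.0713 and 0.0599) and turned to -0.28 with total scaling. MRPL20 and MRPS33 did not pass, at 0.01 and -0.07, and with total scaling both passed as lower, at -0.57 (adjusted p = 0.000327) and -0.65 (adjusted p = 0.000377). Over the 78 genes the change in acidosis had a Spearman rho of -0.09 with canonical transcript length, -0.25 with exon number and 0.14 with control CPM, against -0.083, -0.083 and 0.089 over all genes, where the genes share libraries and are not independent.

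The share of the library held by these genes depended on the denominator. Of the deposited total count, the 78 genes held 0.435% and 0.47% of the library in control, 0.434% and 0.431% with SRPIN340, and 0.317%, 0.307% and 0.317% in acidosis. Over the TMM-scaled total the shares were 0.371% and 0.398%, 0.358% and 0.357%, and 0.402%, 0.384% and 0.406% in the same order, so control and acidosis overlapped. Ratios between genes of a sample do not depend on how libraries are scaled. The summed counts of large over small subunit genes were 1.77 and 1.74 in control, 1.68 and 1.68 with SRPIN340, and 2.21, 2.27 and 2.26 in acidosis. Abundant genes weigh most in such sums, and MRPL42 alone held 6.96%, 7.48% and 7.57% of the counts of the set in the acidosis samples. The ratio therefore does not show a shift of the large subunit genes as a whole, and its value without MRPL42 and MRPL33 was not tested. The standard deviation of log2 CPM over the 78 genes was 0.701 and 0.695 in control, 0.703 and 0.725 with SRPIN340, and 1.24, 1.20 and 1.21 in acidosis. In the subunit ratio and in this standard deviation the acidosis samples lay outside the range of the other 4 samples. The standard deviation over all genes is not given here, so this widening is not shown to be particular to the 78 genes.

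The most abundant gene of the set by CPM was MRPL19 in the 4 samples at pH 7.4 and MRPL42 in the 3 acidosis samples, where MRPL42 took 6.96% to 7.57% of all counts of the set. The ratio of the highest to the lowest gene was 6.72 to 10.1 at pH 7.4 and 61.4 to 72.9 in acidosis. Pairs of genes of the same subunit, chosen after their changes were seen, show the same in single ratios. MRPL42 to MRPL58 was 2.65 to 3.01 at pH 7.4 and 49.7 to 73.4 in acidosis, and MRPL33 to MRPL16 was 1.27 to 1.61 and 16.1 to 19.6. MRPL44 to MRPL45, at the same exit site, was 0.551 to 0.597 and 2.64 to 2.83.

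**Figure D3:**
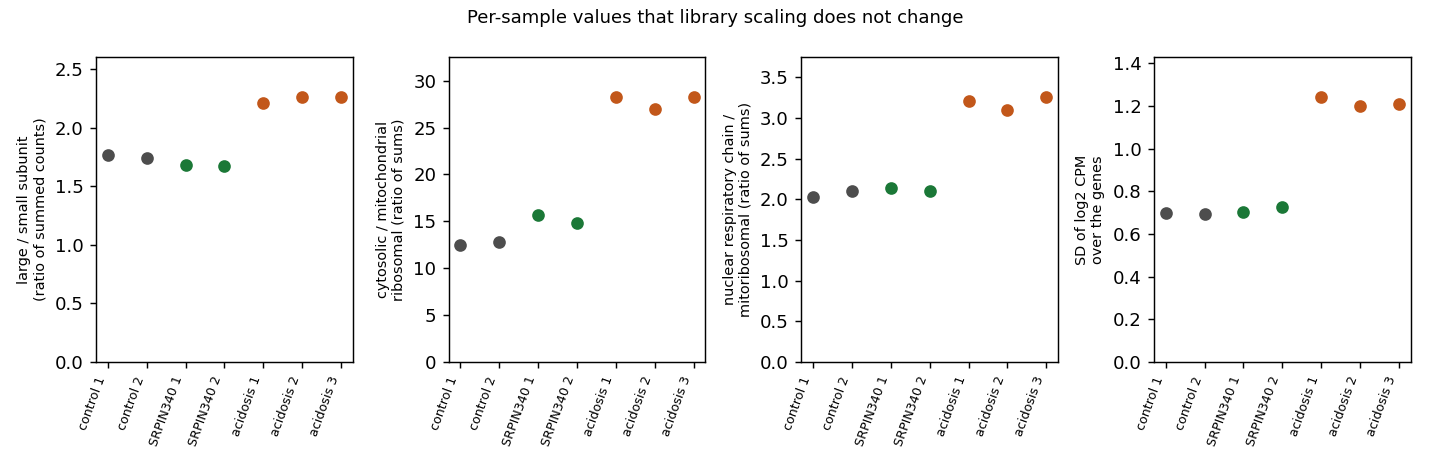
Values of each of the 7 samples (horizontal axis, coloured by group) for the ratio of large to small subunit counts, of cytosolic ribosomal to mitochondrial ribosomal counts, of nuclear respiratory chain to mitochondrial ribosomal counts, and for the standard deviation of log2 CPM over the 78 genes. In all 4 panels, which start at 0, the acidosis samples lie above control and SRPIN340.

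Genes that work with the mitochondrial ribosome moved in both directions in acidosis as well. The shares of all genes were 32.5% higher and 34.2% lower. Of 5 mitoribosomal proteins that carry other symbols, PTCD3, a small subunit protein, rose from 81.2 and 88.7 CPM to 164, 189 and 161 CPM (log2 fold change 1.01, adjusted p = 6.62e-06) and AURKAIP1 rose at 0.28 (adjusted p = 0.0318), which was -0.30 with total scaling. DAP3 (0.17), CHCHD1 (0.03) and GADD45GIP1 (-0.13) did not pass, and with total scaling these 3 passed as lower, at -0.41, -0.55 and -0.70. Of 27 genes for assembly and rRNA modification, 7 rose and 16 fell (median -0.57; 2 and 19 with total scaling). TRMT61B, a methyltransferase of mitochondrial RNA, read 13.3 and 11.6 CPM in control and 1.96, 4.13 and 1.63 CPM in acidosis (-2.31, adjusted p = 7.91e-05), and MPV17L2 (-1.86), MTG1 (-1.74) and GTPBP10 (-1.63) also fell. NGRN, at 136 and 142 CPM in control and 310, 281 and 345 CPM in acidosis (1.17, adjusted p = 2.23e-06), and METTL17 (1.10) rose.

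Among 14 mitochondrial translation factors, 4 rose and 6 fell (1 and 11 with total scaling), beside 32.5% and 34.2% of all genes (16.2% and 55.0%). TUFM, the elongation factor that brings aminoacyl-tRNA to the ribosome, rose from 175 and 201 CPM to 492, 453 and 494 CPM (log2 fold change 1.35, SE 0.0787, adjusted p = 3.81e-07). TSFM, the exchange factor that reloads TUFM with GTP, fell from 30.1 and 32.7 CPM to 6.83, 6.52 and 7.48 CPM (-2.18, SE 0.126, adjusted p = 3.66e-07). The initiation factor MTIF2 fell from 73.5 and 65.4 CPM to 18.3, 18.1 and 19.6 CPM (-1.90, adjusted p = 1.82e-07), while the release factor MTRF1L (0.67) and the recycling factor MRRF (0.60) rose. With total scaling TUFM was at 0.78, TSFM at -2.75 and MTIF2 at -2.47, each past the threshold, while MTRF1L (0.10) and MRRF (0.02) did not pass.

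All 13 genes encoded in mitochondrial DNA, the messages that this ribosome translates, fell in acidosis, with a median of -2.22 and a range from -3.20 to -1.28. MT-CO1 was at 4556 and 4503 CPM in control, 4343 and 5578 CPM with SRPIN340, and 475, 518 and 481 CPM in acidosis. MT-ND2, the least changed, was at 1454 and 1445 CPM in control and 579, 623 and 591 CPM in acidosis. Most of these messages carry short poly(A) tails, and how their capture bears on these values was not tested. The cytosolic ribosomal protein genes went the other way: all 79 tested rose, with a median of 1.24 and a range of 0.44 to 1.65, and 74 of 79 rose with total scaling. The ratio of their counts to those of the mitochondrial set was 12.5 and 12.8 in control, 15.6 and 14.9 with SRPIN340, and 28.3, 27 and 28.3 in acidosis. Of 75 nuclear genes of the respiratory chain, 52 rose and 10 fell (median 0.66; with total scaling 28 and 24, median 0.09), and their ratio to the mitochondrial set was 2.03 and 2.11, 2.14 and 2.10, and 3.20, 3.10 and 3.26 in the same order.

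**Figure D4:**
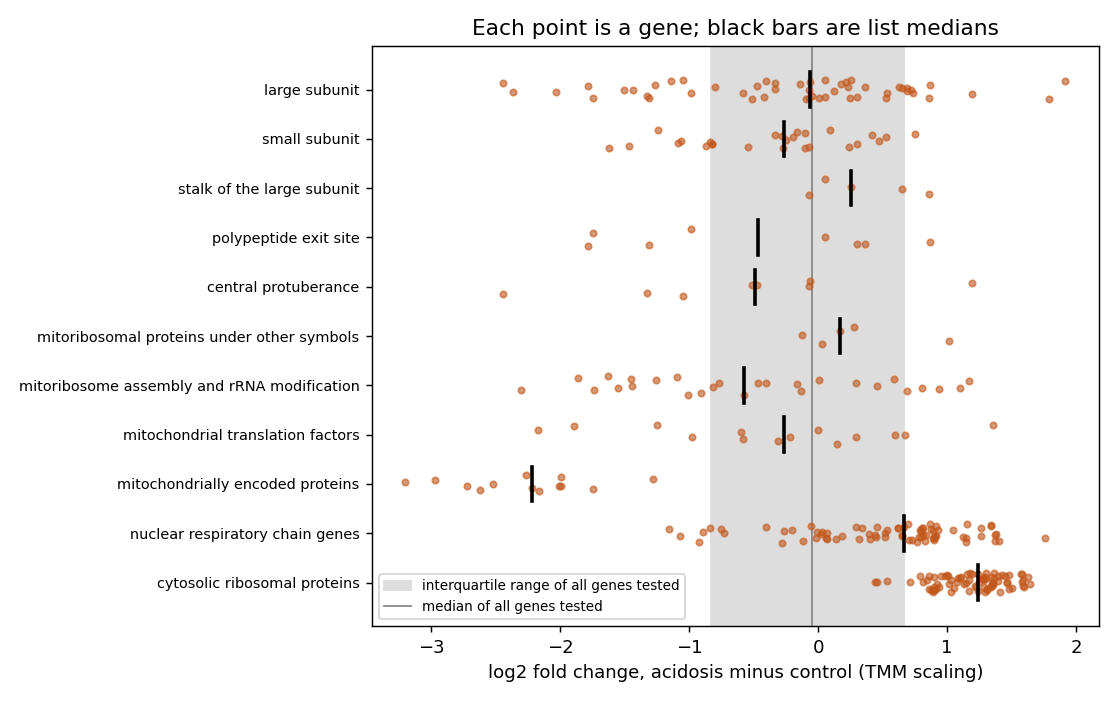
Log2 fold change in acidosis against control (horizontal axis, TMM scaling) for each gene of 11 lists (vertical axis); black bars are list medians and the grey band is the interquartile range of all genes tested. Large and small subunit genes spread to both sides of 0, the mitochondrially encoded genes lie between -3.20 and -1.28, and the cytosolic ribosomal protein genes lie between 0.44 and 1.65.

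Several of these genes share a start region with a neighbour, a view chosen after the changes had been seen. For 26 of the 78 genes, a deposited gene on the opposite strand has its GENCODE start within 1000 bases, which gives 25 distinct pairs. In 12 pairs both genes passed the test in acidosis, 5 in the same and 7 in opposite directions. With total scaling both genes passed in 12 pairs as well, 8 in the same and 4 in opposite directions. Singly, 32.5% of all genes rose and 34.2% fell with TMM scaling. Such pairs among other genes were not counted, so these counts have no background beside them. MRPS11 and MRPL46, whose starts lie 63 bases apart and which belong to different subunits, both fell. MRPS11 went from 38 and 45.9 CPM to 15.6, 15.9 and 14.1 CPM (log2 fold change -1.47, adjusted p = 3.84e-06), and MRPL46 from 33.4 and 35.6 CPM to 16, 11.3 and 13.8 CPM (-1.32, adjusted p = 2.39e-05). In contrast, MRPL47 fell beside NDUFB5, a complex I subunit whose start is 41 bases away and which rose at 0.44 (adjusted p = 0.0126). MRPL49 fell at -0.34 (adjusted p = 0.0311) beside FAU, which encodes a cytosolic ribosomal protein, starts 6 bases away and rose at 1.31 (adjusted p = 1.7e-05). MRPL21 fell at -1.14 beside IGHMBP2, 28 bases away, at 1.52, and MRPL11 rose beside PELI3, 411 bases away, at -2.22. With total scaling NDUFB5 was at -0.14, FAU at 0.74, IGHMBP2 at 0.95 and PELI3 at -2.79. Whether counting used the strand is not given in the sources used here, and 32 of the 78 genes share exonic bases with another deposited gene, 13 of them on the same strand.

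**Figure D5:**
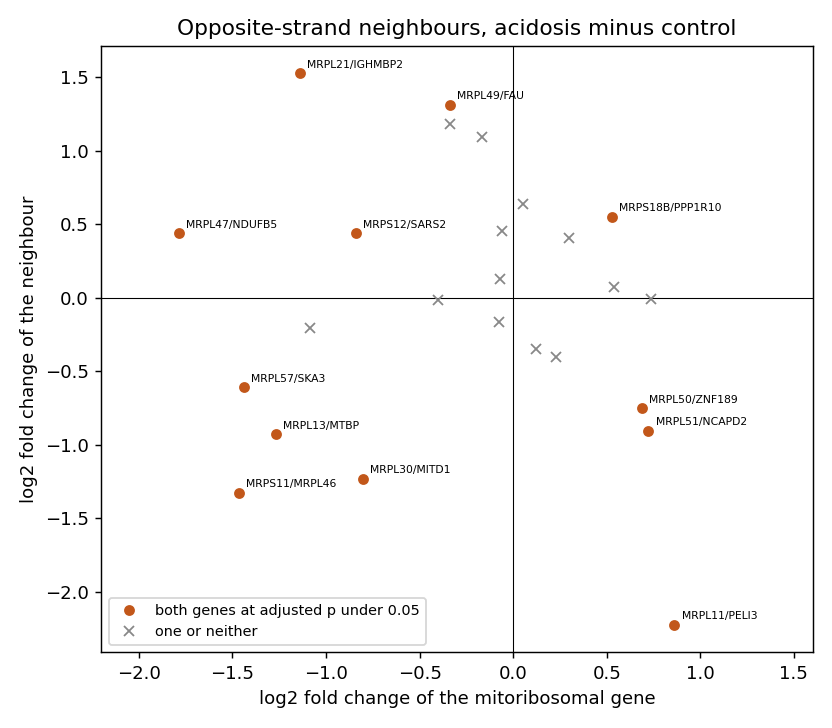
Log2 fold change in acidosis (TMM scaling) of the mitochondrial ribosomal protein gene (horizontal axis) and of its opposite-strand neighbour (vertical axis) for 25 pairs; filled points are the 12 pairs in which both genes passed the test, crosses the others. Points lie in all 4 quadrants, with MRPS11 and MRPL46 both below 0 and MRPL21 and IGHMBP2 on opposite sides.

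With SRPIN340 none of the 78 genes passed the test in either direction, beside 0.767% of all genes higher and 1.53% lower by the same edgeR test. At an unadjusted p under 0.05, 8 of the 78 genes were lower: MRPL15, MRPL20, MRPL28, MRPL9, MRPL27, MRPL49, MRPL54 and MRPS28. They are 10.3% of the set, beside 9.48% of all genes lower at that p, and none of the set was higher, beside 8.15% of all genes. The median log2 fold change was -0.10, against 0.0024 for all genes, with a range from -0.51 to 0.20, and 60 of 78 values were below 0, against 7356 of 14863 for all genes. The median was -0.16 without control replicate 1 and -0.06 without control replicate 2. MRPL20, a large subunit protein with a bacterial counterpart, was at 59.7 and 63.6 CPM in control and 49.4 and 44.9 CPM with SRPIN340, a log2 fold change of -0.39 (SE 0.0982, adjusted p = 0.079). MRPL15 was at 45.8 and 44.4 CPM in control and 34.2 and 34.2 CPM with SRPIN340 (-0.40, SE 0.107, adjusted p = 0.0927). Neither overlapped between the groups, and DESeq2 called both, with MRPL28 as the only other of the 78 (adjusted p = 0.0101, 0.0278 and 0.0163). MRPL20 and MRPL15 were picked for the smallest p, and how many of all genes did not overlap between these groups is not given here. The share of all genes that DESeq2 called is not given here. Of the genes that moved most in acidosis, MRPL42 was at 0.03, MRPL33 at 0.06, MRPL58 at -0.05 and MRPS18A at -0.10 with SRPIN340, with adjusted p from 0.765 to 0.911.

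Compared directly, acidosis samples had 28 of the 78 genes higher than SRPIN340 samples (35.9%, beside 32.8% of all genes) and 31 lower (39.7%, beside 35%), with a median of 0.02. This comparison uses the same acidosis samples as the comparison with control. With total scaling it gave 7 higher (8.97%, beside 15.8% of all genes) and 54 lower (69.2%, beside 56.9%).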

How the data were processed

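RNA from 7 HEK-293 samples was analysed at the gene level. The authors trimmed reads with Trimmomatic 0.39 and Trim Galore 0.6.6, ran Salmon 1.5.1 with Gencode transcripts of GRCh38.p13 and used tximport to reach gene level. They deposited estimated counts, which carry no normalization between samples, and the tximport option is not given in the sources used here. After rounding, the main test was the quasi-likelihood test of edgeR (version 4.0.16, R version 4.3.3) with TMM scaling, filterByExpr and Benjamini-Hochberg adjustment over 14863 genes, in 1 fit of all 7 samples. DESeq2 1.42.0 was an alternative, and the others were scaling, filters, a replicate block, fits of 2 groups only and leaving out each sample. The scripts were tested on simulated data with 200 of 14863 genes changed, which does not test the scaling where many genes change. Of the 19978 genes, 19977 matched GENCODE 44 by Ensembl identifier, which gave symbols, lengths and overlaps; promoters came from RefSeq on GRCh38.p14. CPM used TMM-scaled libraries, and SE is the log2 fold change over the square root of F. Totals were 13615816 to 24110460 counts.

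The 78 genes, the gene lists and the tests were chosen with earlier results of these data known. Genes described singly were the 6 highest and 6 lowest log2 fold changes among those passing in acidosis, the 2 smallest p with SRPIN340, the 5 highest and 3 lowest control levels per length, and genes fixed by role; others were named within lists or after their values were seen. The methods call the samples biological repeats, but the labels do not say whether they were separate cultures, so p-values measure the spread between these samples. The methods also describe several replicates of each repeat; how they became 1 column per sample is not given in the sources used here.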

Additional observations from a re-analysis of the deposited data

How the results depend on the processing

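Scaling by total count moved the counts in acidosis against control to 5 higher and 60 lower with a median of -0.70 (all genes -0.63), and against SRPIN340 to 7 higher and 54 lower with a median of -0.59. Among the genes described singly it reversed the sign of MRPL20 (-0.57), MRPS34 (-0.28), MRPL12 (-0.32), MRPS18B (-0.049), MRPS30 (-0.049) and MRPS6 (-0.16). Upper-quartile factors moved the 2 medians to -0.29 and -0.14 (all genes -0.22 and -0.21). DESeq2 called 3 genes lower with SRPIN340, where edgeR called 0. The share of all genes that DESeq2 called lower is not given here. Leaving out 1 sample at a time gave 16 to 21 higher and 28 to 34 lower in acidosis against control, with medians of -0.18 to -0.09. It gave 19 to 27 higher and 26 to 31 lower against SRPIN340, with medians of -0.01 to 0.05, and 0 calls for SRPIN340 against control, with medians of -0.16 to -0.06. In some of these fits a group had 1 sample, which is assumed to vary like the others. The medians of all genes in acidosis against control ran from -0.058 to -0.039 in them. The shares of all genes called in these fits are not given here.

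The replicate numbers did not pair the samples: same-numbered samples had correlations of their deviations from -0.15 to 0.07. With the replicate block, acidosis against control gave 17 higher and 32 lower (median -0.16, all genes -0.057). Acidosis against SRPIN340 gave 24 and 28 (median -0.0031, all genes -0.059). SRPIN340 against control gave 0 and 0 (median -0.11, all genes 0.0030). The shares of all genes called with the block are not given here. MRPS34, MRPL12 and MRPS6 lost their calls with it. The share of the library held by the 78 genes, taken over the TMM-scaled total, was 0.371% and 0.398% in control, 0.358% and 0.357% with SRPIN340, and 0.402%, 0.384% and 0.406% in acidosis, so its order depends on the denominator.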
